A study of Mus musculus with 12 samples.

Results

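The cell cycle genes described here are 40 mouse genes whose RNA is known to accumulate in dividing cells. They were chosen by name and found by the gene symbol in each library's table, and all 40 were present among the 47729 genes listed per library. All 40 also passed the filter on low counts that left 18942 genes for testing. By role they fall into 12 genes of DNA replication, 3 of nucleotide supply, 8 cyclins and regulators, 6 mitotic kinases and checkpoint proteins, 3 centromere and kinetochore proteins, 4 spindle proteins, 2 parts of the anaphase-promoting machinery and 2 chromatin proteins.

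RNA was sequenced from fat of wild type male C57BL/6J mice of 6 to 10 weeks, kept on a high-fat diet. Each of 4 depots gave 3 libraries: brown fat between the shoulder blades (BAT) and white fat of the epididymis (EWAT), the groin (inguinal, IWAT) and the back of the abdomen (retroperitoneal, RWAT). The 12 libraries all carry the label of surgical denervation, the cutting of the nerves to the depot, so depots can be compared here but denervated with intact fat cannot. The sources used here do not give the time from surgery to collection or say that libraries come from separate animals, and p-values therefore measure only the spread between these libraries, which may be technical.

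Total expected counts ranged from 12933516 to 21106554 per library, and the members held between 19 and 9407 counts each in a library. The brown fat label was checked with Zic1, a transcription factor of brown fat, which lay between 7.35 and 16.02 CPM (counts scaled to a common library size) in BAT and at or below 0.910 CPM in the 9 white libraries. Ucp1, the uncoupling protein that defines thermogenic brown adipocytes, was at 1489 CPM in BAT 1 but at 0.253 and 1.70 CPM in BAT 2 and BAT 3, so BAT 2 and BAT 3 lacked a defining marker of their label. The summed level of 4 brown adipocyte markers (Zic1, Ucp1, Cidea and Cpt1b) was 2024, 17.8 and 20.7 CPM in BAT 1 to 3. It was 32.7 and 26.0 CPM in IWAT 1 and IWAT 2 and at most 8.26 CPM in the other white libraries. The BAT comparisons below carry this limit. RWAT 1 and RWAT 3 held much skeletal muscle RNA, with a summed level of 5 muscle genes of 435 CPM in RWAT 1 and 2175 CPM in RWAT 3. Within any depot the correlation of log2 CPM between libraries did not exceed 0.966, so no library was counted as a repeat of another.

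Cells that enter division first transcribe the genes for copying DNA, under E2F transcription factors that the retinoblastoma protein otherwise holds back. Genes for mitosis follow, held down in resting cells by the DREAM complex through a promoter element called the CHR and driven in dividing cells by B-MYB and FOXM1, with NF-Y bound at CCAAT boxes. In the fat of obese mice dividing cells are known among macrophages, adipocyte progenitors and endothelial cells, whereas mature adipocytes rarely divide.

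The members were high together in some libraries and low together in others. Their summed level was 1399, 2951 and 1200.0 CPM in BAT 1 to 3 and 2089, 1659 and 3115 CPM in EWAT 1 to 3. It was 371, 874 and 1295 CPM in IWAT 1 to 3 and 1998, 2736 and 1253 CPM in RWAT 1 to 3. The depot means were therefore ordered EWAT (2288 ± 748 CPM, SD, n = 3), RWAT (1996 ± 742), BAT (1850 ± 959) and IWAT (847 ± 463). The ranges of EWAT, RWAT and BAT overlapped, and IWAT 3 lay above BAT 3 and RWAT 3, whereas every IWAT library lay below every EWAT library. As a share of all counts the members took from 0.0313% in IWAT 1 to 0.318% in BAT 2.

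Single libraries led this pattern. BAT 2 was the highest BAT library for 40 of the 40 members, EWAT 3 the highest EWAT library for 38, IWAT 3 the highest IWAT library for 38 and RWAT 2 the highest RWAT library for 39. IWAT 1 was the lowest of all 12 libraries for 37 members and IWAT 2 for the other 3 (Pcna, Ccne1 and Cdc45). Over all 12 libraries the highest value belonged to EWAT 3 for 22 members, to BAT 2 for 15, to EWAT 2 for 2 and to RWAT 2 for 1. That tally depends on the scale. In deposited TPM the highest library was BAT 2 for 18 members, RWAT 2 for 17, EWAT 3 for 4 and EWAT 1 for 1, EWAT 3 was the highest EWAT library for 23 and EWAT 1 for 17, and IWAT 1 was the lowest of all for 38. The heat map of all members shows the high columns of BAT 2, EWAT 3 and RWAT 2 and the low column of IWAT 1 crossing every role.

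**Figure D1:**
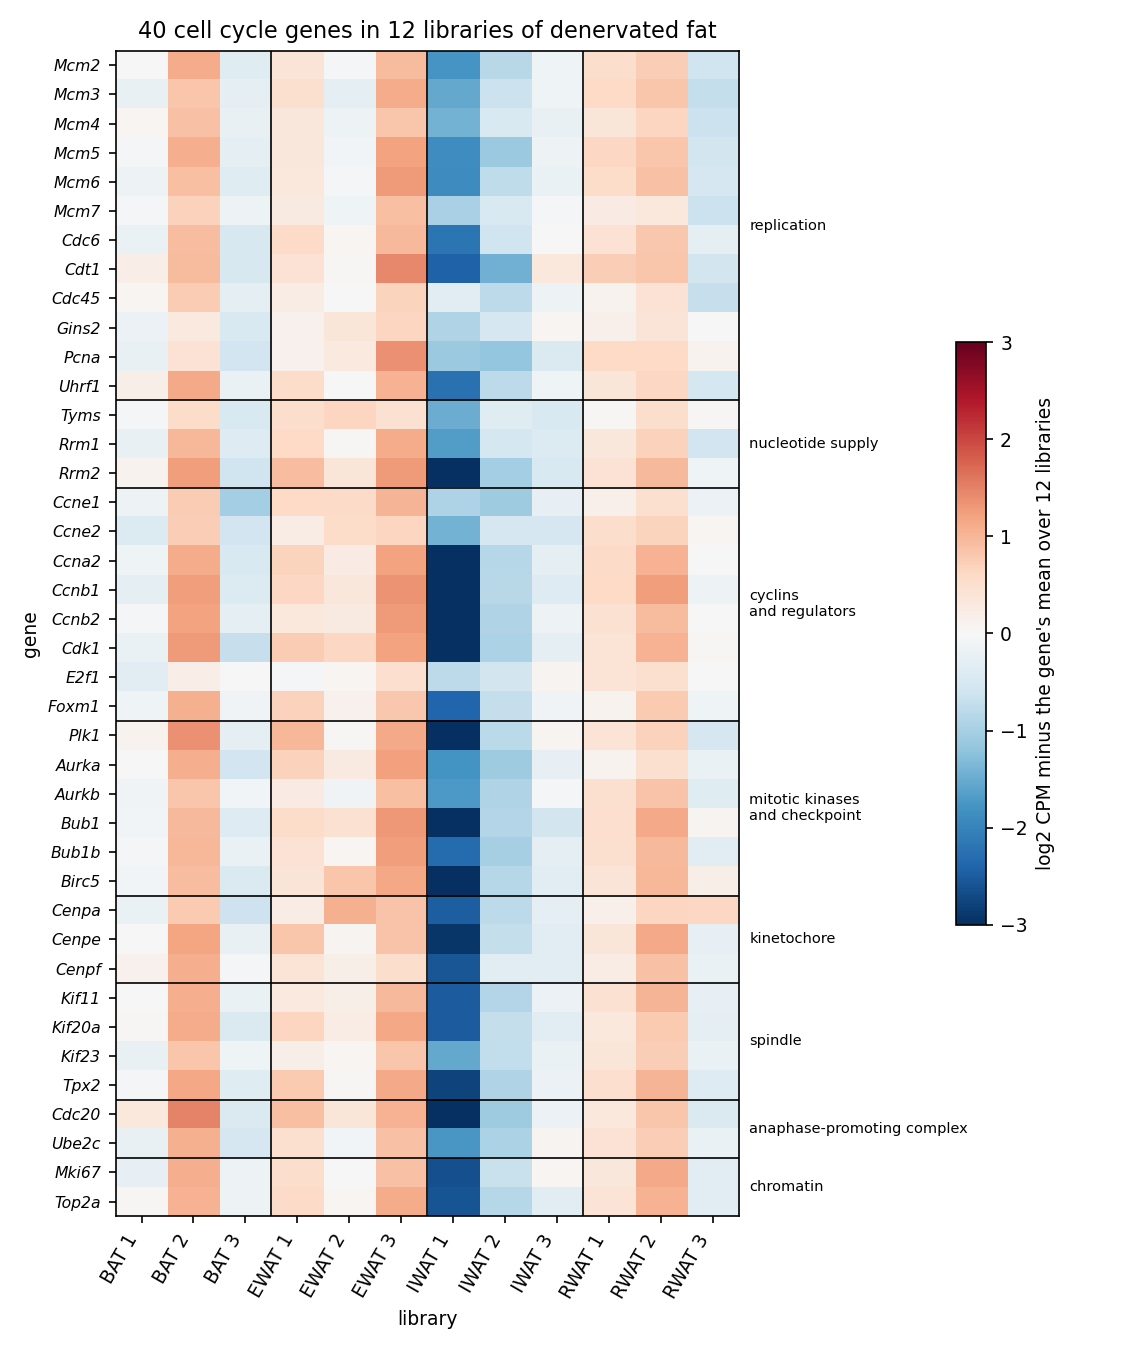
Each row is 1 of the 40 cell cycle genes, grouped by role, each column is a library, and the colour is log2 CPM (prior count 2) minus the gene's mean over the 12 libraries, with the darkest blue standing for -3 or lower. Red columns appear at BAT 2, EWAT 3 and RWAT 2, and IWAT 1 is the lowest column for 37 of the 40 genes.

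The promoters of the members were read for the elements named above. RefSeq promoter windows (build GRCm38.p6) were found for 32 members, as 34 promoters, and the 250 bases before each start were searched on both strands. No window was matched for Aurkb, Foxm1, Mcm4, Kif20a, Tpx2, Ccna2, Gins2 and Ccne2. A CCAAT box (CCAAT) was present in 28 of 34 member promoters (82.4%), against 33.8% of all 32851 promoters in the table. The CHR (TTTGAA) was present in 9 of 34 (26.5%, against 16%), and an E2F element (TTTCCCGC, TTTGGCGC, TTTCGCGC or TTTGCCGC) in 6 of 34 (17.6%, against 1.86%). The median GC content was 59.6% in member promoters and 52.4% in all of them.

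The elements were divided by phase. Genes of the G1/S transition (replication, nucleotide supply, Ccne1, Ccne2 and E2f1) had 17 of the promoters, and the later genes of G2 and mitosis had the other 17. The CHR stood in 7 of 17 promoters of the later genes (41.2%) and in 2 of 17 of the G1/S genes (11.8%), and each of those 9 promoters also held a CCAAT box, a combination found in 5.55% of all promoters. The E2F letters stood in 5 of 17 G1/S promoters (29.4%) and in 1 of 17 later ones (5.88%). A match describes letters in the window and shows no binding.

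The promoters printed here were chosen after the matches were seen, to show both kinds beside a promoter with no match. Each runs 5′ to 3′ on the gene's strand and ends at the base before the RefSeq start, and capitals mark the CHR, CCAAT and E2F matches on either strand. Cdc20 lies at chr4:118437344-118437593, Cdk1 at chr10:69352913-69353162, Top2a at chr11:99024190-99024439, Mcm6 at chr1:128359706-128359955 and Tyms at chr5:30073626-30073875, all on the minus strand, and Mcm5 at chr8:75109259-75109508 on the plus strand.
Cdc20: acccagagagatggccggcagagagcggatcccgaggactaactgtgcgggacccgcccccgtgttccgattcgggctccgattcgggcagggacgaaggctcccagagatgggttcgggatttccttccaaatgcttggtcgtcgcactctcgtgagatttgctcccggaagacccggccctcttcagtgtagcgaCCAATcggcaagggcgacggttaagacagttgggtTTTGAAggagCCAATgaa
Cdk1: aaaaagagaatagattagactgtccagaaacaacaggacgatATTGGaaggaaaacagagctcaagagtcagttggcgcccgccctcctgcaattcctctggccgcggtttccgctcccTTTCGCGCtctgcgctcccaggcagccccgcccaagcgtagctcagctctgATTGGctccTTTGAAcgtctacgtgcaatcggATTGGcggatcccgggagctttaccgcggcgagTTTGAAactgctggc
Top2a: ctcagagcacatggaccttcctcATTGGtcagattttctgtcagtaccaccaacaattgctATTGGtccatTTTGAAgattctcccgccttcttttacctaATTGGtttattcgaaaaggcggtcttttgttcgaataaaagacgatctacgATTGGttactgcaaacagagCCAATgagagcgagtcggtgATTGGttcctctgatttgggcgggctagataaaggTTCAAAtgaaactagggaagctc
Mcm5: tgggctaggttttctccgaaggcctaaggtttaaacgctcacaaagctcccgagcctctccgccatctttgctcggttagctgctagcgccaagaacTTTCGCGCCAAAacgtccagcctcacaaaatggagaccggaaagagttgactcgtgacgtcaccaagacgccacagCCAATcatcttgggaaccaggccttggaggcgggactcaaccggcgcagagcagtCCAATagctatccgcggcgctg
Mcm6: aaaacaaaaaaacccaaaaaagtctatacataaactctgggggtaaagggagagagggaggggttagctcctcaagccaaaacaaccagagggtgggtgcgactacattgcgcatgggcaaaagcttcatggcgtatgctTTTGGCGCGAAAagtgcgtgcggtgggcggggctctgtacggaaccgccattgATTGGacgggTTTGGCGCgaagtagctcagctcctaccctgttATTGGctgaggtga
Tyms: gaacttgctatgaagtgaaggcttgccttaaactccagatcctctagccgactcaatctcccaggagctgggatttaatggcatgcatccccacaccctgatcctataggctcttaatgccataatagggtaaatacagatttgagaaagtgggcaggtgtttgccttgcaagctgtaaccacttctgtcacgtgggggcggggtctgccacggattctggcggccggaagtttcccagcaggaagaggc
In Cdc20 the first base of the CHR lies 18 bases before the start, with CCAAT boxes at 53 and 8. Cdk1 carries 2 such matches, at 71 and 15, with CCAAT boxes in the reverse direction (ATTGG) at 208, 80 and 48 and an E2F match at 131. Top2a has 6 CCAAT boxes and a CHR on each strand. In Mcm5 and Mcm6 a run of 12 capitals holds 2 overlapping E2F matches, 1 on each strand, and neither promoter holds a CHR.

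Among the replication genes, Pcna, the sliding clamp that holds DNA polymerase on its template, had the highest mean level per transcript length (TPM) of all 40 members, at 139 TPM over the 12 libraries. Its levels were 105, 165 and 82.05 CPM in BAT 1 to 3, 134, 150.1 and 317 in EWAT, 56.5, 55.01 and 91.1 in IWAT and 187, 186 and 131 in RWAT. EWAT 3 stood highest, and every IWAT library lay below every EWAT and RWAT library. Mcm2, part of the ring-shaped helicase that is loaded on origins and later unwinds DNA, was at 35.4, 75.7 and 27.2 CPM in BAT 1 to 3, 45.7, 33.6 and 67.1 in EWAT, 10.1, 19.5 and 31.8 in IWAT and 50.5, 58.2 and 22.97 in RWAT. Its 3 IWAT values lay below the EWAT values, by little between IWAT 3 and EWAT 2.

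The other 5 helicase subunits, Mcm3 to Mcm7, spanned between 3.66-fold (Mcm7) and 9.01-fold (Mcm6) from the lowest to the highest library in CPM. Cdt1, which loads the helicase together with Cdc6, had the widest span of this role, 2.62 to 39.7 CPM, and Cdc6 ran over 1.77 to 16.9 CPM. Cdc45 and Gins2, which join the helicase when the origin fires, were the flattest, at 6.02 to 17.9 CPM and 10.003 to 29.5 CPM. Uhrf1, which reads newly copied, partly methylated DNA behind the fork, ran over 7.98 to 84.2 CPM.

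Of the genes of nucleotide supply, Rrm2, the regulated subunit of ribonucleotide reductase, varied most. It was at 31.2, 70.2 and 19.3 CPM in BAT 1 to 3, 55.1, 37.5 and 70.97 in EWAT, 3.27, 14.3 and 21.3 in IWAT and 39.4, 57.2 and 26.8 in RWAT, so that IWAT 1 lay 21.7-fold below EWAT 3. Its partner Rrm1 spanned 7.02-fold. Tyms, which makes the thymidine nucleotide and whose promoter above holds none of the elements searched, was at 29.2, 43.8 and 21.9 CPM in BAT 1 to 3, 42.8, 46.6 and 41.4 in EWAT, 10.7, 23.3 and 21.6 in IWAT and 30.8, 42.96 and 30.7 in RWAT. The EWAT values of Tyms lay close together, and the IWAT values were below all of them.

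Among the cyclins and regulators, Cdk1, the kinase that drives entry into mitosis, had the highest mean level per length, 50.8 TPM. Its levels were 27.6, 77.4 and 19.6 CPM in BAT 1 to 3, 53.8, 49.2 and 73.8 in EWAT, 3.46, 16.5 and 25.8 in IWAT and 42.1, 65.5 and 32.7 in RWAT, with BAT 2 above EWAT 3 and IWAT 1 far below the rest. Ccnb1, the cyclin that activates it, was at 23.01, 66.4 and 20.9 CPM in BAT 1 to 3, 42.6, 34.9 and 70.3 in EWAT, 2.68, 15.4 and 21.2 in IWAT and 42.05, 65.9 and 25.1 in RWAT and had the widest relative spread of the 40 members. Ccne1, the cyclin of the G1/S step, was a low gene at 6.82, 12.8 and 3.67 CPM in BAT 1 to 3, 11.4, 11.2 and 15.5 in EWAT, 3.92, 3.57 and 6.30 in IWAT and 8.36, 10.6 and 6.67 in RWAT, with every IWAT library below every EWAT library. Ccna2, Ccnb2, Ccne2 and Foxm1, the transcription factor of mitotic genes, spanned between 4.51-fold (Ccne2) and 22.5-fold (Ccnb2). E2f1, an activator of S phase genes, varied least of all members, 9.54 to 23.6 CPM.

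**Figure D2:**
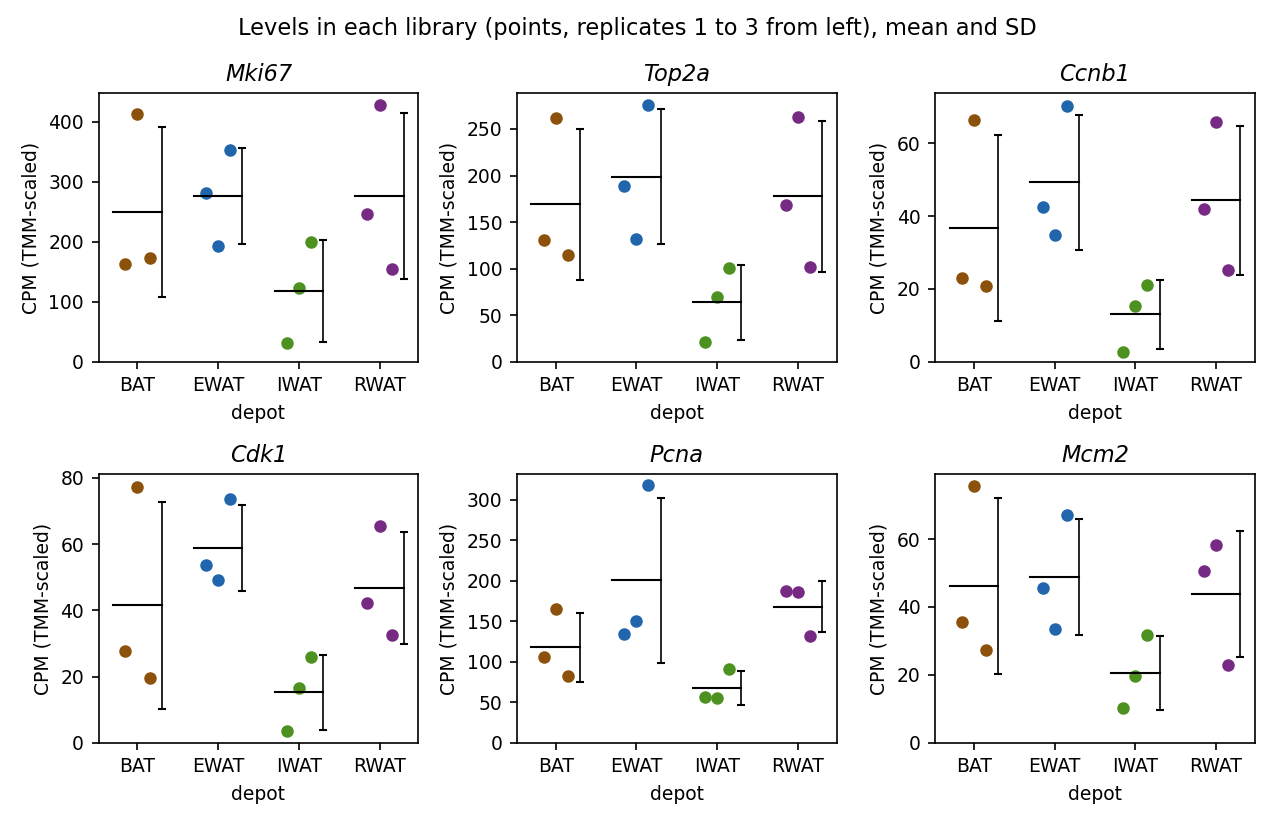
Points are the CPM (y axis) of Mki67, Top2a, Ccnb1, Cdk1, Pcna and Mcm2 in each library of the 4 depots (x axis, replicates 1 to 3 from left), with the mean and SD of 3 libraries. The mean of IWAT is the lowest in each panel, and BAT 2, EWAT 3 and RWAT 2 lie high.

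The mitotic kinases and checkpoint proteins had their highest values in BAT 2 or EWAT 3 and their lowest in IWAT 1, each of the 6. Birc5, or survivin, a subunit of the chromosomal passenger complex, had the highest mean level per length of this role, 25.96 TPM, and was at 24.9, 33.97 and 42.9 CPM in EWAT and 2.09, 10.5 and 15.2 CPM in IWAT. Aurka, the kinase that matures spindle poles, was at 11.5, 24.8 and 7.72 CPM in BAT 1 to 3, 18.7, 14.04 and 27.2 in EWAT, 3.27, 5.44 and 9.65 in IWAT and 12.5, 16.1 and 10.1 in RWAT. Bub1, a kinase of the spindle checkpoint, was at 15.3, 32.1 and 12.4 CPM in BAT 1 to 3, 23.6, 22.4 and 40.005 in EWAT, 1.77, 8.70 and 11.1 in IWAT and 23.2, 35.8 and 17.2 in RWAT. Plk1, a kinase that acts throughout mitosis, had the largest fold between libraries of this role (26.4-fold), Bub1b spanned 12.1-fold and Aurkb, the passenger complex kinase, 6.31-fold.

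Of the kinetochore genes, Cenpa, the histone variant that marks centromeres, was highest per length at 33.1 TPM. It was at 29.6, 52.8 and 45.8 CPM in EWAT and 4.45, 14.6 and 21.01 CPM in IWAT, and it is 1 of the 2 members whose highest library was EWAT 2. Cenpe, a motor that pulls chromosomes to the spindle centre, ran over 5.03 to 88.4 CPM and Cenpf over 6.15 to 78.7 CPM. Tpx2, which activates Aurka on spindle microtubules, was the highest spindle gene per length (20.3 TPM). Tpx2 spanned 15.6-fold, Kif11, the motor that pushes the poles apart, 12.2-fold, and Kif20a and Kif23, motors of cell division, 12.8-fold and 5.21-fold.

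Cdc20, the activator of the anaphase-promoting complex, was at 21.7, 49.6 and 13.04 CPM in BAT 1 to 3, 32.9, 22.6 and 36.4 in EWAT, 1.83, 8.34 and 15.5 in IWAT and 21.7, 31.5 and 13.04 in RWAT, the largest fold between libraries of any member (27.1-fold). Ube2c, the enzyme that hands ubiquitin to that complex, had the higher mean per length of the pair, 28.9 TPM, and spanned 7.19-fold. Mki67, the antigen Ki-67 that coats mitotic chromosomes and marks cycling cells, was at 163, 413 and 173 CPM in BAT 1 to 3, 281, 194 and 354 in EWAT, 31.1, 122 and 200.5 in IWAT and 246, 428 and 155 in RWAT. Top2a, the topoisomerase that untangles sister chromosomes, was at 130.5, 262 and 115 CPM in BAT 1 to 3, 189, 132 and 275 in EWAT, 20.99, 69.96 and 101 in IWAT and 168, 263 and 102 in RWAT and 45.7 TPM on average. For Mki67, IWAT 3 lay above EWAT 2, so that IWAT and EWAT overlapped, and for Top2a they did not.

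The spread itself differed along the members. The SD of log2 CPM over the 12 libraries had a median of 0.91 over the 40 members and of 0.47 over all genes tested. The widest members were Ccnb1 (1.28), Cdc20 (1.24), Cdk1 (1.24), Rrm2 (1.23), Plk1 (1.22) and Bub1 (1.20), and the narrowest were E2f1 (0.40), Gins2 (0.44), Cdc45 (0.49), Mcm7 (0.53) and Tyms (0.62). By role the median SD was 0.80 for replication and for nucleotide supply, 1.04 for cyclins and regulators and 1.07 for mitotic kinases and checkpoint proteins. The difference between roles was not tested.

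Inguinal fat had the lowest mean cell cycle RNA of the 4 depots. Against EWAT, 40 of the 40 members had lower values in IWAT, with a median log2 fold change of -1.45, where all genes tested had a median of 0.02. The edgeR quasi-likelihood test with Benjamini-Hochberg adjustment (adjusted p under 0.05) called 4 members, all lower, and 4.6% of all genes tested were called lower (9.03% in either direction). The called share of the members is thus near the background of a comparison in which 1710 genes passed.

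The 4 called members come from 4 roles. Pcna (chr2:132249162-132253314 on GRCm38) fell to 67.5 ± 20.5 CPM in IWAT from 201 ± 101 CPM in EWAT (SD, n = 3), a log2 fold change of -1.57 ± 0.38 (SE) with an edgeR adjusted p of 0.0332. Tyms (chr5:30058202-30073617) fell from 43.6 ± 2.69 to 18.5 ± 6.86 CPM (-1.23 ± 0.31, edgeR adjusted p = 0.0388). Aurka (chr2:172356190-172370535) fell from 19.99 ± 6.67 to 6.12 ± 3.24 CPM (-1.71 ± 0.48, edgeR adjusted p = 0.0495). Ccne1 (chr7:38097984-38107534) fell from 12.7 ± 2.41 to 4.60 ± 1.48 CPM (-1.47 ± 0.41, edgeR adjusted p = 0.0499).

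Several members with wider spread had larger differences and did not pass. They include Rrm2 (-2.07 ± 0.63, edgeR adjusted p = 0.0584), Bub1 (-1.99 ± 0.58, adjusted p = 0.0544), Cdk1 (-1.95 ± 0.65, adjusted p = 0.0762) and Ccnb1 (-1.91 ± 0.68, adjusted p = 0.0902). Top2a stood at -1.64 ± 0.56 (edgeR adjusted p = 0.0808), Mcm2 at -1.25 ± 0.50 (adjusted p = 0.125) and Mki67 at -1.23 ± 0.61 (adjusted p = 0.206). Before adjustment, 37 of 40 members had an edgeR p under 0.05 and a lower value in IWAT, against 14.7% of all genes. For 32 of 40 the IWAT and EWAT libraries did not overlap, IWAT being lower, against 15.1% of all genes. The overlapping members were Mcm3, Mcm7, Cdt1, E2f1, Plk1, Aurkb, Ube2c and Mki67.

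By role, the median log2 fold change of IWAT against EWAT was -1.26 for replication (1 of 12 called), -1.43 for nucleotide supply (1 of 3) and -1.56 for cyclins and regulators (1 of 8). It was -1.68 for mitotic kinases and checkpoint proteins (1 of 6), -1.60 for kinetochore genes (0 of 3), -1.54 for spindle genes (0 of 4), -1.50 for the anaphase-promoting pair (0 of 2) and -1.43 for the chromatin pair (0 of 2). The histogram sets all members within the lower part of the distribution of all genes, where many other genes also lie.

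**Figure D3:**
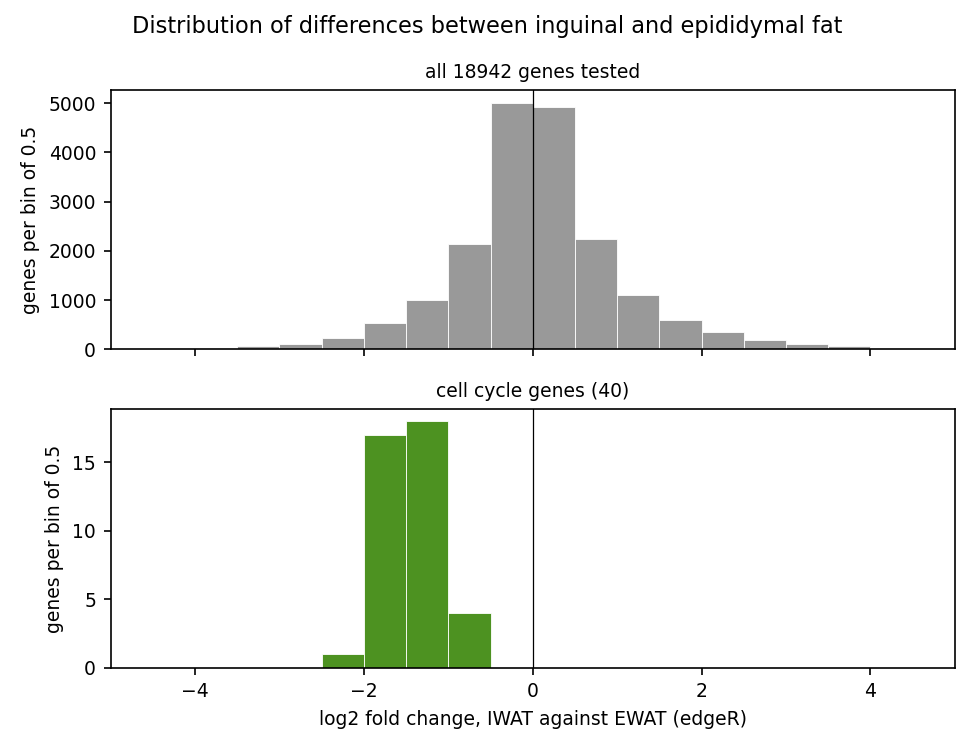
Histograms of the edgeR log2 fold change of IWAT against EWAT (x axis, bins of 0.5) count all 18942 genes tested (top) and the 40 cell cycle genes (bottom). All 40 members lie below 0, between -2.07 and -0.57, and 102 genes beyond 5 in either direction are outside the axis.

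The count of calls rested on single libraries. It was 0 without EWAT 3, without IWAT 1 and without IWAT 2, 1 without BAT 1, EWAT 1, EWAT 2 or RWAT 1, 2 without RWAT 2 or RWAT 3, 8 without IWAT 3 and 11 without BAT 2. It was 0 without RWAT 1 and RWAT 3 together, the libraries with muscle RNA. DESeq2 called 26 members, limma-voom 8 and limma on log2(TPM + 1) 0. The share of all genes called under each of these settings is not given here, so these counts cannot be read against a background. The scale also mattered for overlap. In deposited TPM, 2 of the 40 members had no overlap between IWAT and EWAT (3.64% of all genes lower), and in TPM rescaled without Rn7s1, Rn7s2 and Rn7sk, which are 7SL and 7SK RNA genes, 25 had none (13% of all genes). Those 3 genes took 54.0% of all TPM in EWAT 2 and 11.5% and 21.2% in EWAT 1 and EWAT 3. On the deposited TPM the median of all genes itself shifted by 0.17 on the log2 scale, and relative to it the median of the members was -1.36. The members had lower mean values in IWAT on each of the 4 scales tried, 40 of 40.

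RWAT and BAT also had higher values than IWAT for 40 of the 40 members, but no member was called. Against IWAT the members' median log2 fold change was 1.21 in RWAT (all genes -0.01) and 1.18 in BAT (all genes -0.02). The edgeR test called 0 members in each, with 0% of all genes called in RWAT and 0.0264% in BAT, so that hardly any gene of any kind passed. Before adjustment 24 members had an edgeR p under 0.05 in RWAT (9.63% of all genes higher) and 23 in BAT (7.82%). DESeq2 called 3 members higher in RWAT and 0 in BAT, and limma-voom 0 in both. The share of all genes that DESeq2 called is not given here, so the 3 calls cannot be read against a background.

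In RWAT against IWAT the smallest p-values belonged to Pcna (1.32 ± 0.38, edgeR adjusted p = 0.151), Ccne2 (1.22 ± 0.37, adjusted p = 0.153), Bub1 (1.82 ± 0.58, adjusted p = 0.162) and Tyms (0.91 ± 0.31, adjusted p = 0.177). The libraries of 17 members did not overlap (11% of all genes), among them Pcna, with RWAT at 187, 186 and 131 CPM. That count was 19 in CPM on total counts (12.4% of all genes), 3 in deposited TPM (3.56%) and 15 in TPM rescaled without the 7SL and 7SK genes (9.45%). In BAT against IWAT the smallest were Rrm2 (1.63 ± 0.62, edgeR adjusted p = 0.370), Aurka (1.26 ± 0.48), Cdc20 (1.71 ± 0.66) and Bub1 (1.47 ± 0.58). There 6 members did not overlap (Rrm1, Bub1, Bub1b, Cenpe, Cenpf and Top2a, against 8.37% of all genes). On the same 3 scales the count was 4 (6.34% of all genes), 0 (1.87%) and 1 (5.14%). The 3 comparisons with IWAT share its libraries, and their values are side by side in the plot of fold changes.

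**Figure D4:**
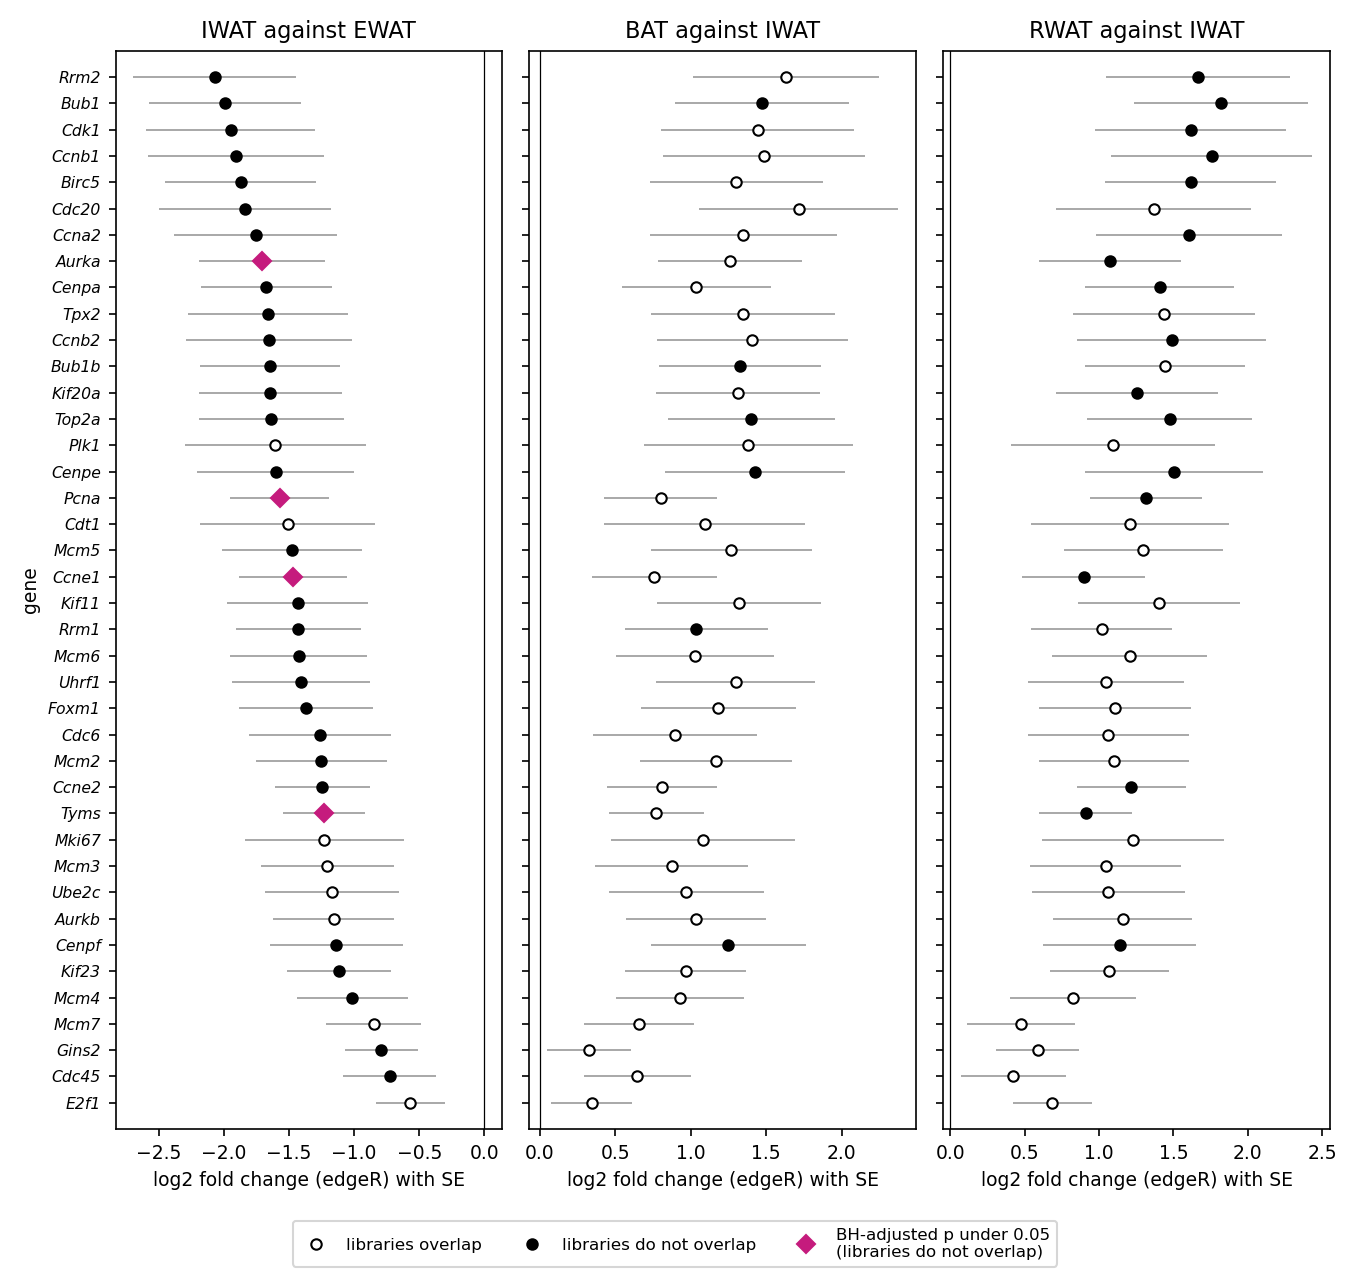
Log2 fold changes from edgeR with SE (x axes) of the 40 cell cycle genes (y axis) for IWAT against EWAT, BAT against IWAT and RWAT against IWAT. Diamonds are the 4 members past the adjusted threshold, filled circles are members whose libraries do not overlap, and all points lie on 1 side of 0 in each panel.

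Among EWAT, RWAT and BAT the members did not separate. In BAT against EWAT the median log2 fold change was -0.32, with 39 of 40 members lower (all genes 0.01), and 0 were called (0.0845% of all genes). The smallest p was that of Pcna (-0.77 ± 0.37, edgeR adjusted p = 0.560), followed by Ccne1 (-0.71), Gins2 (-0.47) and Tyms (-0.46). In RWAT against EWAT the median was -0.20 (all genes -0.01), with 0 called (0.00528% of all genes), and Ccne1 (-0.57 ± 0.41, edgeR adjusted p = 0.999), Aurka (-0.63), Tyms (-0.32) and Mcm7 (-0.37) had the smallest p. Ccne1 was the 1 member without overlap there, lower in RWAT, against 3.78% of all genes.

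In BAT against RWAT the median was -0.10 (all genes 0.02), with 0 called (0.0158% of all genes). The smallest p belonged to Pcna (-0.51 ± 0.37, edgeR adjusted p = 0.9996), E2f1 (-0.34), Ccne2 (-0.41) and Gins2 (-0.26). Set against the average of the white depots, BAT gave a median of 0.26 (all genes 0.01), with 0 called (0.0528% of all genes). Cdc20 (0.65 ± 0.50, edgeR adjusted p = 0.9996), Cenpf (0.49), Uhrf1 (0.48) and Mcm2 (0.39) had the smallest p there, and BAT 2 held the highest BAT value of each. In these 4 comparisons 0 members had an unadjusted edgeR p under 0.05, where 9.41% of all genes had one in BAT against EWAT, 4.52% in RWAT against EWAT, 4.36% in BAT against RWAT and 4.66% in BAT against the white depots. Leaving out BAT 2 moved the median in BAT against EWAT to -0.83, leaving out BAT 1 or BAT 3 to -0.15 or -0.08, and leaving out EWAT 3 to -0.03. The sign of the median rested on single libraries in the other 3. It was 0.07 without EWAT 3 and 0.04 without RWAT 3 in RWAT against EWAT. In BAT against RWAT it was 0.08 without BAT 1, 0.17 without BAT 3 and 0.21 without RWAT 2, and in BAT against the white depots -0.26 without BAT 2. DESeq2 and limma-voom also called 0 in each of these 4 comparisons.

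Other genes of the cell cycle were read from lists of their own. Of 61 further genes of mitosis, 10 were called lower in IWAT than in EWAT and 0 higher (4.6% of all genes were called lower), with a median of -1.57. The smallest p belonged to Cks2, a partner of Cdk1 (log2 fold change -1.89, edgeR adjusted p = 0.0354), Mad2l1, a spindle checkpoint protein (-1.67), Spc24 of the kinetochore (-0.96) and Ncapg2 of condensin (-1.64). Of 38 further genes of S phase, 3 were called lower and 0 higher, with a median of -1.11, among them Rfc5, which helps load the Pcna clamp (-1.09), and Gmnn, the inhibitor of Cdt1 (-1.80). Without EWAT 3, IWAT 1, IWAT 2 or RWAT 1, each of the 2 lists had 0 called. The S phase list also had 0 called without BAT 1, EWAT 1, EWAT 2 or RWAT 2. Both lists had 0 called in the other 6 comparisons.

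Genes that govern entry into the cycle were read in the same way. Of 22 G1 cyclins, kinases and E2F partners, 2 were called lower in IWAT than in EWAT and 1 higher (9.03% of all genes in either direction), with a median of -0.34. Cdk4, the kinase that begins the inactivation of the retinoblastoma protein, was at 63.3, 58.2 and 68.4 CPM in IWAT and at 125, 121 and 146 CPM in EWAT, a log2 fold change of -1.04 ± 0.24 (edgeR adjusted p = 0.0308). Lin9, a subunit of the DREAM complex, differed by -1.15, and Tfdp2, a dimer partner of E2F factors, by 0.78. Of 14 cell cycle inhibitors, 1 was called (against the same 9.03%), Cdkn1c, which blocks cyclin-dependent kinases and was higher in IWAT (7.52, 9.32 and 13.9 CPM) than in EWAT (2.38, 5.02 and 3.81 CPM), by 1.46 ± 0.34 (edgeR adjusted p = 0.0312). The median of the 14 inhibitors was -0.22. Without EWAT 1, EWAT 3, IWAT 1 or IWAT 2, 0 genes of either list were called.

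Markers of other cell types also differed between the depots. The summed level of 12 macrophage markers was 10287 to 11268 CPM in EWAT, 6080.3 to 8471 in RWAT, 5086 to 6460 in BAT and 3128 to 4100.2 in IWAT, the same order of depots as the members, and none of the 12 was at 0. Of the 12, 5 were called lower in IWAT than in EWAT (4.6% of all genes lower), with a median of -1.54, led by Lyz2, the macrophage lysozyme (-2.23, edgeR adjusted p = 0.0129), Cd14 (-2.11), Fcgr1 (-2.37) and Itgam (-1.94). Without IWAT 1 or without IWAT 2, 0 of the 12 were called, and without EWAT 1 or EWAT 3, 1 was.

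Within depots the macrophage markers did not all order the libraries alike. Lyz2 alone made up 6692 CPM of the EWAT mean sum of 10656, and EWAT 3 had the lowest sum of EWAT beside the highest cell cycle sum. Other macrophage markers, chosen here after their values were seen, were highest in EWAT 3. Adgre1, which encodes F4/80, was at 459.7, 408 and 768 CPM in EWAT 1 to 3, and Cd68, a lysosomal protein, at 309.8, 284 and 682 CPM. In BAT 1 to 3 Adgre1 was at 391, 352 and 514 CPM and Cd68 at 315, 252 and 215 CPM, neither highest in BAT 2. Within IWAT both were highest in IWAT 3. Within RWAT, Cd68 was highest in RWAT 2 and Adgre1 in RWAT 1, each by little. Trem2, a receptor of lipid-laden macrophages, was at 153, 194 and 336 CPM in EWAT, 92.9, 113 and 45.8 in BAT, 4.31, 15.7 and 91.3 in IWAT and 161, 173 and 112 in RWAT. In BAT, IWAT and RWAT Trem2 ordered the 3 libraries as the summed cell cycle genes did, and in EWAT the highest library was the same. Itgax, another marker of the list, was highest in BAT 1 (38.7 CPM, against 19.5 in BAT 2). In RWAT it was highest in RWAT 1 (38.8 CPM, against 35.1 in RWAT 2), and in EWAT and IWAT in EWAT 3 and IWAT 3.

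The 7 adipocyte markers had the highest mean sum in IWAT, with 17685, 11230.5 and 15656 CPM in IWAT 1 to 3, against 929, 8347 and 4159 CPM in EWAT 1 to 3. BAT 3, at 15397.5 CPM, lay above IWAT 2. None of the 7 was called between IWAT and EWAT by edgeR (median 1.79) or limma-voom, and DESeq2 called 3 higher. The share of all genes that DESeq2 called is not given here. Of the 7, 4 had an unadjusted edgeR p under 0.05 (15% of all genes were higher by that rule) and 6 did not overlap, IWAT being higher (17.3% of all genes). BAT 2 (3524 CPM) and RWAT 2 (2697 CPM), which were high for the members, had the lowest adipocyte sums of their depots. In EWAT that library was EWAT 1 and in IWAT it was IWAT 2, whereas the summed members were highest in EWAT 3 and IWAT 3.

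The 7 progenitor markers summed to 298 to 433 CPM in EWAT and 698 to 1650 CPM in IWAT, and 5 were called higher in IWAT (4.43% of all genes higher). The 4 with the smallest p were Pi16, a marker of early progenitors (5.96, edgeR adjusted p = 0.0142), Dpp4 (3.63), Ly6a (1.98) and Cd34 (1.86). Without IWAT 1 or without IWAT 2, 0 progenitor markers were called, and without EWAT 3, 1 was. Ly6a was also called higher in BAT than in EWAT (2.83, edgeR adjusted p = 0.0240). Of 5 mesothelial markers, 2 were called lower in IWAT than in EWAT, Wt1 (mean 0.0610 CPM in IWAT and 17.6 CPM in EWAT, edgeR adjusted p = 0.0201) and Upk3b (0.365 and 9.06 CPM, adjusted p = 0.0461), neither of them without EWAT 3, IWAT 1 or IWAT 2, and all 5 were lower without overlap (15.1% of all genes). Of the 3 germinal centre B cell markers tested, 1 was called lower, S1pr2 (-1.40, edgeR adjusted p = 0.0294). Without EWAT 1, EWAT 3, IWAT 1 or IWAT 2, 0 germinal centre markers were called. For both lists the share of all genes called lower was 4.6%. Endothelial markers had 0 of 5 called (median 0.02) and summed to 176 to 651 CPM in EWAT and 198 to 509 CPM in IWAT. B cell, T and natural killer, erythroid and plasma cell markers had 0 called by edgeR. In IWAT against EWAT the unadjusted edgeR p was under 0.05 for 1 endothelial and 1 plasma cell marker. It was so for 0 B cell, T and natural killer or erythroid markers. By the same rule 9 of the 9 T and natural killer markers tested were higher in BAT than in the average of the white depots (698 of 18942 genes). Their summed level was 119, 9.63 and 33.1 CPM in BAT 1 to 3 and 8.18 to 25.4 CPM in the white libraries. The 4 plasma cell markers summed to 95.2 to 209 CPM in EWAT, 61.9 to 131 in RWAT, 41.1 to 105 in BAT and 14.9 to 79.9 in IWAT. Their depot means were thus in the order of the members as well, but the single markers did not all go that way. In IWAT against EWAT the 3 tested had log2 fold changes from -1.98 to 1.99, with 2 lower and 1 higher. Of the brown adipocyte markers, Zic1 was called higher in BAT than in EWAT (edgeR adjusted p = 0.0172), than in IWAT (0.0142) and than in the white depots (0.00126). The part of these cell types in the differences of the cell cycle genes was not tested. In bulk tissue, fewer dividing cells and less of this RNA per cell cannot be told apart.

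**Figure D5:**
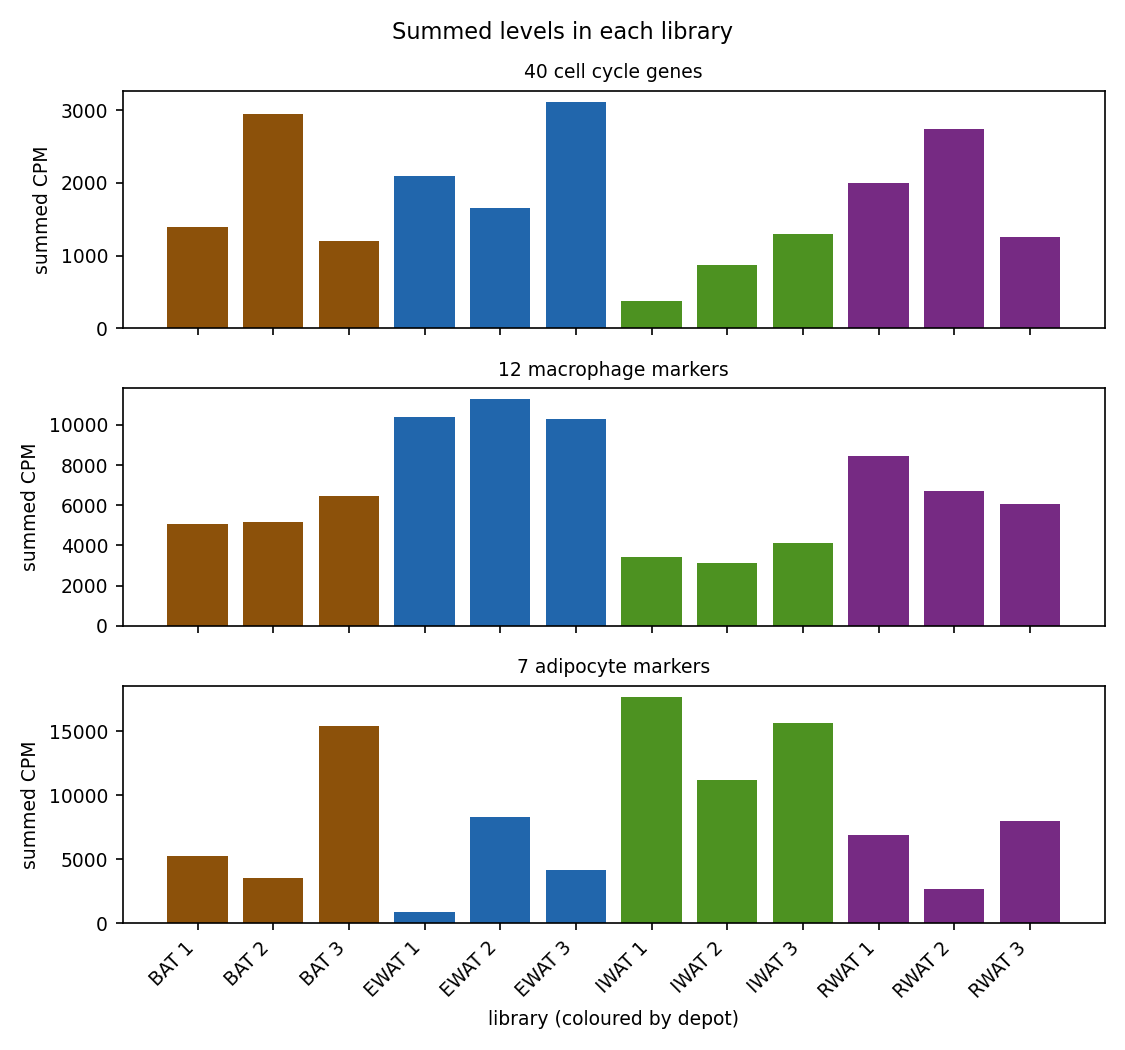
Bars give, for each library (x axis, coloured by depot), the summed CPM (y axes) of the 40 cell cycle genes, of 12 macrophage markers and of 7 adipocyte markers. IWAT is low in the first and second panels and high in the third, and BAT 2, EWAT 3 and RWAT 2, the highest bars of their depots in the first panel, are not the highest of their depots in the second.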

How the data were processed

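Ribosomal RNA was removed from total RNA and single-end reads of 75 bases were sequenced, per the labels' protocols. The submitters' processing notes name Trimmomatic 0.36, RSEM 1.3.0, DESeq2 1.10.1 and the build GRCm38.p4. The sources used here name no aligner and no annotation release. The authors deposited, for each library and gene, the RSEM expected count (an estimated count with no normalization between libraries), the TPM (a level per transcript length with the same total in each library) and the posterior standard deviation of the count, per the file headers. The deposited posterior SD reached 7.07% of the count in Kif20a and 5.08% in Tyms, and was 5% or less in the other 38 members.

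Expected counts were rounded, filtered with filterByExpr (minimum count 10) and scaled by TMM factors of 0.846 to 1.14. Differences were tested, two-sided, with the quasi-likelihood F test of edgeR 4.0.16 in 1 model over all 12 libraries with a coefficient per depot (biological coefficient of variation 0.385). P-values were adjusted by the Benjamini-Hochberg method over all 18942 genes tested, in 7 comparisons. SE is the log2 fold change divided by the square root of F. Levels between libraries are TMM-scaled CPM, and levels between genes are TPM. Alternatives were the RLE scaling, other filters, DESeq2 1.42.0, limma-voom of limma 3.58.1, log2(TPM + 1), fits of fewer libraries and the replicate number as a block. R 4.3.3 was used. The edgeR step was checked on simulated data, and the outcome is not given here. Genes were drawn independently there, so the check does not cover members that are high or low together in a library. Positions come from GENCODE M21 and promoters from RefSeq.

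Libraries with the same replicate number deviated together (correlations of deviations 0.182, 0.429 and 0.199) between BAT and RWAT alone: no other depot pair had all 3 correlations over 0.1. The members and the gene lists were chosen with earlier results of these data known. Named members are those called in each comparison, or the 4 with the smallest p where fewer were called, in each role the highest by TPM and the smallest by p, and Mki67, Top2a, Ccnb1, Cdk1, Pcna and Mcm2. Other members named with values, and Zic1 and Ucp1, were chosen after their values were seen. Of the further lists, up to 4 called genes a comparison are named, except 1 that is not reported here.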

Additional observations from a re-analysis of the deposited data

How the results depend on the processing

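The counts of called members, the medians of the members and the members named for each comparison were recomputed under 23 alternatives (22 for BAT against the white depots). The number of members called in IWAT against EWAT, 4, became 2 with RLE scaling, 8 without a filter on low counts, 26 with DESeq2, 8 with limma-voom, 1 when only the compared depots were fitted and 0 with limma on log2(TPM + 1). A replicate block gave 1 call there, and the block changed no other count of called members. Leaving out 1 library at a time gave 0 to 11. Of the alternatives chosen after seeing the data, leaving out EWAT 1 and BAT 2, each with the lowest adipocyte sum of its depot, gave 2, and leaving out RWAT 1 and RWAT 3 gave 0. In RWAT against IWAT DESeq2 called 3 where the count was otherwise 0, and in the other 5 comparisons the count was 0 under every alternative. The cause of these shifts was not tested, and the share of all genes called under each alternative is not given here. The median log2 fold change of the members kept its sign in the 3 comparisons with IWAT under all 23 alternatives, ranging from -1.92 to -1.10 in IWAT against EWAT, 0.65 to 1.72 in BAT against IWAT and 0.82 to 1.69 in RWAT against IWAT. Of the called members, Pcna lost its call under 7 alternatives, Tyms under 12, Ccne1 under 14 and Aurka under 16. Of the 4 members named in BAT against the white depots, 3 changed sign (39 of all 40 members were negative without BAT 2): Cdc20 ranged from -0.048 without BAT 2 to 0.99 without BAT 3, Mcm2 from -0.17 to 0.65 and Uhrf1 from -0.0147 to 0.73 without the same libraries. Without EWAT 1 and BAT 2 they were at -0.032, -0.19 and -0.025. The median of BAT against EWAT ranged from -0.87 to -0.03. The medians of RWAT against EWAT (-0.51 to 0.22), BAT against RWAT (-0.58 to 0.21) and BAT against the white depots (-0.28 to 0.50) crossed 0. Of the other lists, counts and medians in IWAT against EWAT were recomputed under the same 23 alternatives: calls ranged from 0 to 46 of 61 genes of mitosis, 0 to 20 of 38 of S phase, 0 to 9 of 12 macrophage, 0 to 5 of 7 progenitor and 0 to 5 of 7 adipocyte markers. Calls among the 22 G1 cyclins, kinases and E2F partners ranged from 0 to 4 lower and 0 to 3 higher. Of the 14 inhibitors 0 to 2 were called higher, and of the germinal centre B cell markers 0 to 2 lower. Values of single genes outside the members were not recomputed. Depth limits the low members most, down to 19 counts in a library.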

Other observations

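In the list of G1 cyclins, kinases and E2F partners, 4 genes chosen after their values were seen did not pass the test between IWAT and EWAT. Cdk6, a partner of the D cyclins, was at 22.2, 48.8 and 48.5 CPM in IWAT 1 to 3 and 115, 68.97 and 93.8 CPM in EWAT 1 to 3, a log2 fold change of -1.22 ± 0.36 that did not pass (edgeR adjusted p = 0.0548). Ccnd1 was at 26.3, 29.9 and 64.3 CPM in IWAT and 82.4, 48.6 and 121 CPM in EWAT, which overlapped, with edgeR adjusted p = 0.119. Ccnd3 was at 102, 72.7 and 72.7 CPM in IWAT and 59.99, 57.3 and 44.5 CPM in EWAT, and Rb1, the retinoblastoma gene, at 108, 92.1 and 85.8 CPM in IWAT and 56.5, 68.9 and 67.4 CPM in EWAT. For both, every IWAT library lay above every EWAT library, as for 17.3% of all genes, with log2 fold changes of 0.62 ± 0.20 (edgeR adjusted p = 0.0756) and 0.57 ± 0.21 (edgeR adjusted p = 0.0952) that did not pass.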
